A study of Homo sapiens with 42 samples.

Results

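The response of SKM-1 to decitabine was described from 6 RNA libraries, 3 of cells given decitabine and 3 of cells given the solvent DMSO, out of 42 libraries of 7 acute myeloid leukaemia (AML) lines that the labels describe and 30 libraries of 5 lines that were used. SKM-1 is an established human line of AML that followed a myelodysplastic syndrome, and its libraries are labelled wild type. Decitabine was given at 100 nM on each of days 0, 1 and 2, and total RNA of both groups was taken at 72 hours. The 6 libraries were chosen by their labels alone, with no measured value. All genes were considered, of which 16977 of the 60240 in the table were tested: those with at least 10 normalised counts in at least 3 of the 6 libraries. A normalised count is the deposited unit, an estimated read count scaled between libraries, and 1 read was worth 0.283 to 0.387 of it in these libraries. As a model the group is 1 line at 1 dose and 1 time, and whether the 3 replicates were separate cultures is not given, only that seeding was in duplicate or triplicate wells. The p-values therefore rest on the spread of 3 libraries a group, which may be technical.

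Decitabine is a deoxycytidine analogue that is phosphorylated in the cell and built into DNA during replication. There it traps the maintenance DNA methyltransferase DNMT1, so that methylation is lost as the cells divide, and it is used against myelodysplastic syndromes and AML. Genes held silent by methylated promoters, among them cancer-testis antigens that are otherwise made mainly in germ cells, are its best known targets. AML cells carry a block in myeloid maturation, and granule proteins, surface receptors and lineage transcription factors show how far along the granulocyte or monocyte path they stand.

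The libraries of SKM-1 were deep, with 61.4 to 69.3 (in units of 1e+06 reads in genes, estimated from the step of 1 read) in DMSO and 50.9 to 55.1 after decitabine, so that the treated libraries were the shallower ones. The genes at 10 normalised counts or more numbered 15990 ± 97.1 in DMSO and 17201 ± 59.2 after decitabine (SD, n = 3). Libraries correlated across genes with r between 0.987 and 0.991 within a group and between 0.947 and 0.952 between groups (genes are not independent replicates). No library stood apart. Mitochondrial genes took 14.5% ± 0.739 of the total in DMSO and 16.9% ± 1.36 after decitabine (exact two-sided permutation p = 0.1, the smallest that 3 against 3 libraries allow), and their part in the results below was not tested beyond the scaling alternative given here. Myeloid identity was checked on defining genes: in DMSO the myeloid antigen CD33 had 1475 ± 52.5, the master factor SPI1 1998 ± 178 and lysozyme LYZ 10795 ± 127 normalised counts (SD, n = 3), while the monocyte receptor CD14 had 1.05 ± 0.974 and haemoglobin genes HBA1 and HBB were at 0 in all 6 libraries.

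Decitabine changed a large share of the transcriptome of SKM-1, and the large changes were nearly all rises. Of 16977 tested genes, 7447 were called (43.9%): 4267 were higher (25.1%) and 3180 lower (18.7%), by limma on log2(normalised count + 1) with Benjamini-Hochberg (BH) adjusted p below 0.05. The shares of 25.1% higher and 18.7% lower are the background for each list count given below. Members of a list that passed the filter through the decitabine libraries alone could enter only by rising, and many lists hold some. Among the called genes, 1351 were higher and 113 lower by at least 1 log2 unit, 588 and 9 by at least 2, and 336 and 0 by at least 3. The median of all tested genes was 0.06. The 3 decitabine values lay wholly above the 3 DMSO values in 5375 genes (31.7%) and wholly below in 4045 (23.8%). The balance of small calls depended on scaling: quantile normalization, which moved the median of all genes from 0.06 to -0.07, gave 3356 higher and 3936 lower, and scaling without mitochondrial genes gave 4932 higher and 2459 lower. Protein-coding genes were 3442 higher and 2999 lower of 13435 tested, and long non-coding RNA types 569 higher and 115 lower of 2235.

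**Figure D1:**
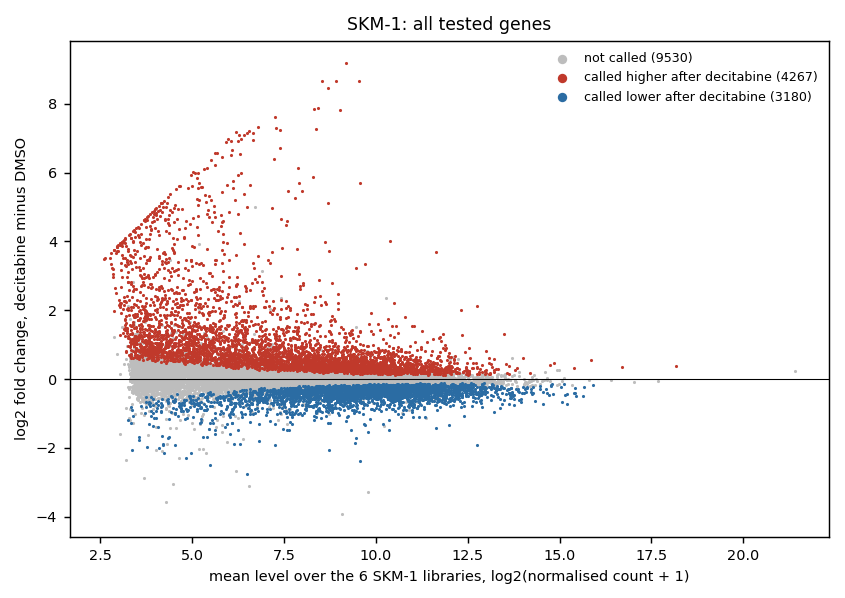
Each point is 1 of the 16977 tested genes of SKM-1, with its mean level over the 6 libraries as log2(normalised count + 1) on the x axis and its log2 fold change on the y axis, coloured by call. Called rises reach 9.18, called falls reach -2.75, and the slanted upper edge on the left is formed by genes near 0 in DMSO.

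The largest rises came from genes that were almost silent in DMSO. MAGEA4 (ENSG00000147381.11, GRCh38 chromosome X, 151912509 to 151925170, plus strand), a cancer-testis antigen of the MAGE family, had 1.12, 1.15 and 0.747 normalised counts in DMSO and 1105, 1175 and 1189 after decitabine. The difference on the log2 scale was 9.18 (SE 0.13), with a BH-adjusted p of 3.39e-08 by limma. The groups did not overlap, by the rule that chose the named genes, for any of the 28 protein-coding genes of this and the later account of falls. COL14A1, a fibril-associated collagen, went from 3.53, 0.766 and 0.699 in DMSO to 976, 964 and 952 (8.66, SE 0.36). The zinc-finger gene ZNF595 went from 0, 2.84 and 2.45 to 771, 879 and 827 (8.45, SE 0.49). In each of these 3 genes the treated libraries lay within a narrow band, while the DMSO libraries sat at a few reads.

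HDC (ENSG00000140287.11, GRCh38 chromosome 15, 50241947 to 50266026, minus strand), the enzyme that makes histamine, had 0.677, 3.38 and 1.88 in DMSO and 627, 585 and 697 after decitabine (7.84, SE 0.32, limma, BH-adjusted p = 2.78e-06). CD93 (ENSG00000125810.10, GRCh38 chromosome 20, 23079349 to 23086340, minus strand), a surface lectin of myeloid and endothelial cells, had 4.15, 1.95 and 5.09 and then 1006, 1009 and 1075 (7.83, SE 0.25, limma, BH-adjusted p = 9.43e-07). Both passed from a trace to at least 100 normalised counts in every treated library. GPAT2, a glycerol-phosphate acyltransferase of germ cells, rose by 7.62 (SE 0.18), from 0.371, 0.757 and 0.494 to 283, 349.5 and 276. KRT8, which simple epithelia use with KRT18 for their filaments, rose by 7.27 (SE 0.11), from 3.3, 3.32 and 3.21 to 643, 640.4 and 688. TKTL1, a transketolase-like gene counted among the cancer-testis antigens, rose by 7.87 (SE 0.21), from 1.73, 3.06 and 1.31 to 660.1, 678 and 725. These 3 genes had the same shape, a low DMSO level and treated libraries close together. Copies of germline families completed the set: GAGE12F (8.65), GAGE2A (7.33), CT45A5 (7.24) and RHOXF2B (7.21) belong to families with near-identical members, so that the share of reads given to each copy is uncertain, and PNMA5 and HORMAD1 are described below.

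**Figure D2:**
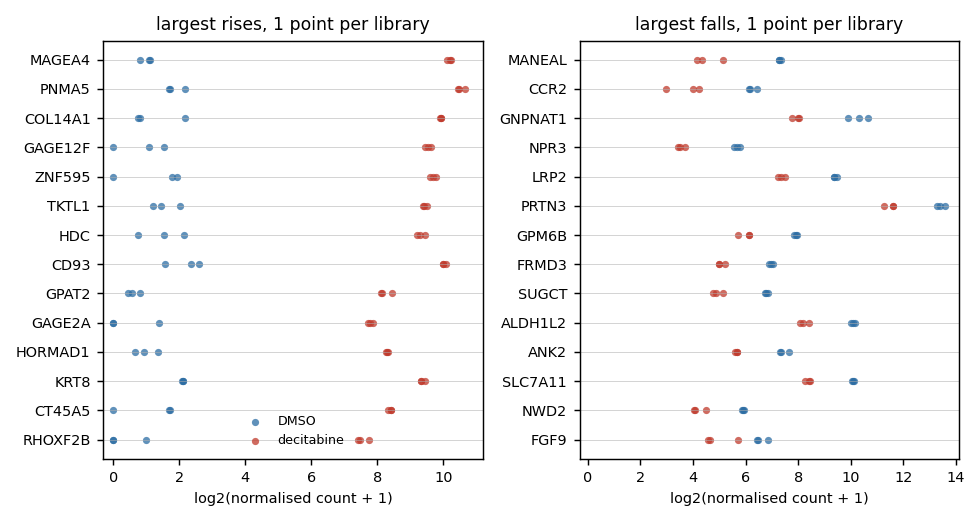
Each point is 1 SKM-1 library, with log2(normalised count + 1) on the x axis, for the 14 protein-coding genes with the largest called rise (left) and the 14 with the largest called fall (right). The rising genes start below 3 on this axis in DMSO and end above 7, whereas the falling genes start from an expressed level and keep part of it.

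Silent genes were counted in both directions. Below 1 normalised count in each DMSO library were 34911 genes, of which 142 reached at least 10 and 16 at least 100 in every decitabine library. Of 4377 silent protein-coding genes, 118 reached 10 and 14 reached 100. In the reverse direction, of 31943 genes below 1 in each decitabine library, 0 had reached 10 in every DMSO library. This is a description with no test, since the same libraries chose the genes. PROSER2-AS1, an antisense RNA, was at 0 in all 3 DMSO libraries and at 157, 135 and 145 after decitabine, at least 157-fold higher against a floor of 3 reads per library. The testis histone gene H2BC1 was at 0 and then 116, 146 and 113 (at least 135-fold), and the axonemal dynein heavy chain gene DNAH8 at 0 and then 106, 116 and 136 (at least 129-fold). The other 13 genes that reached 100 were GPAT2, EPPK1, H1-1, RHOXF2B, CT45A1, TDRD1, H4C6, GTSF1, INPP5J, IL5RA, RBM46, TMPRSS11F and PAX8-AS1. Among them IL5RA, the receptor chain for the eosinophil cytokine IL-5, went from 0.474, 0 and 0.606 to 139, 121 and 138.

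Many germline genes rose in SKM-1. The cancer-testis list holds 47 genes counted as such antigens, many of them normally made mainly in the testis and placenta. Of these, 43 had a higher mean after decitabine, 0 a lower one and 4 were at 0 in all 6 libraries. A higher mean can rest on a few reads, and the share over all genes was not counted. Only 22 of the 47 passed the filter. Called higher were 22 of the 22 tested, against 25.1% of all genes, but 21 of these passed the filter through the decitabine libraries alone and so had to differ; their median of 5.02 (5.09 with the 10 genes at 0 in DMSO set to their bound) is given as a description. PNMA5 (ENSG00000198883.12, GRCh38 chromosome X, 152988824 to 152994127, minus strand), a paraneoplastic Ma antigen, had 2.21, 3.54 and 2.3 normalised counts in DMSO and 1408, 1397 and 1621 after decitabine. CT45A1 went from 0, 0 and 0.918 to 161, 167 and 203. Summed over the list, the libraries held 1035 to 1058 normalised counts in DMSO and 7557 to 7830 after decitabine, with no overlap.

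The genes of meiosis and of the piRNA pathway, which pairs chromosomes and silences transposons in germ cells, moved the same way. Of 49 listed, 45 had a higher mean, 2 a lower one and 2 were at 0 throughout, and of 30 tested 27 were called higher and 0 lower (median 2.90); 15 of the tested ones passed through the decitabine libraries alone. HORMAD1, a protein of the meiotic chromosome axis, had 0.92, 1.55 and 0.581 in DMSO and 317, 303 and 311 after decitabine (7.30, SE 0.20). DAZL, the germ-cell RNA-binding protein, had 0.266, 0 and 0 and then 85.2, 81.1 and 99.2 (6.37, SE 0.21). GTSF1, a partner of PIWI proteins, had 0, 0.418 and 0 and then 156, 158 and 147. TDRD1, a tudor protein of the same pathway, had 0, 0.369 and 0.321 and then 158, 184 and 159. The treated libraries of these 4 genes lay at 81.1 or above and the DMSO libraries at 1.55 or below. TEX15 (1605 and 1583 on the mean, -0.02, SE 0.06) and DMC1 (110.1 and 98.5, -0.15, SE 0.20), which SKM-1 already transcribed in DMSO, were not called and overlapped.

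The promoters of 4 risen genes are printed because CpG sites are where DNA methylation acts, and they differ widely in how many they hold. Each runs from 250 bases before to 50 after the RefSeq gene start (GRCh38.p14), 5′ to 3′ on the gene's strand, with every CG in capitals. MAGEA4 has 10 CpG sites (chrX:151912224-151912523, plus strand), then PNMA5 with 23 (chrX:152994067-152994366, minus strand), DAZL with 33 (chr3:16605374-16605673, minus strand) and HDC with 7 (chr15:50265677-50265976, minus strand).
MAGEA4: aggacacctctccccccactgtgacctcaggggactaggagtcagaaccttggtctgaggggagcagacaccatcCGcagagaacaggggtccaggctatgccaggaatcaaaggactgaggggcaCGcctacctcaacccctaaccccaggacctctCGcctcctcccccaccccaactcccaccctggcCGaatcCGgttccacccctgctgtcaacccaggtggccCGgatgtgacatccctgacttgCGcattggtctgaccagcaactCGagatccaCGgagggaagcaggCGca
PNMA5: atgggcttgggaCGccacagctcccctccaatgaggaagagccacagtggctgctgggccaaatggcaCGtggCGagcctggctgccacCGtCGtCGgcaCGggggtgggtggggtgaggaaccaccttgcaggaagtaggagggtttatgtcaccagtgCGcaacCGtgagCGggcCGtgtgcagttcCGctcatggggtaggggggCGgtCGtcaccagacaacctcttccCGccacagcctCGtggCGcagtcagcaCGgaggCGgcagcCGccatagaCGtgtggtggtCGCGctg
DAZL: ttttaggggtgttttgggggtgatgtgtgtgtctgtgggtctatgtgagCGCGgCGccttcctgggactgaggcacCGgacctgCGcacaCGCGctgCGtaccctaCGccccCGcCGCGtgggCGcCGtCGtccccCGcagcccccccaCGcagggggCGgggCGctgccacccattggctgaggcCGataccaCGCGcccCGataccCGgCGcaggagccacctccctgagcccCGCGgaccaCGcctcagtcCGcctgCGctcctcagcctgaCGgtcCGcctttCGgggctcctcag
HDC: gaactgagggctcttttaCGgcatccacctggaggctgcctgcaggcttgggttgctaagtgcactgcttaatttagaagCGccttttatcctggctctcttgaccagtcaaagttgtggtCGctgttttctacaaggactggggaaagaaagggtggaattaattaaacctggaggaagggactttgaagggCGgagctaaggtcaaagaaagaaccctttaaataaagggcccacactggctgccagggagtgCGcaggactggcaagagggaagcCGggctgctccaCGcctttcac
All 27305 promoters of the reference table had a median of 14 CpG sites (quartiles 3 and 28), and the 10671 tested protein-coding genes with an entry a median of 26 (17 and 34). Of the 22 cancer-testis genes called higher, 18 had an entry, with a median of 13 sites (10 and 17.75), and of the 27 meiosis and piRNA genes, 22 had one, with a median of 25. The letters describe the sequence only: methylation was not measured in these libraries. No comparison is drawn from these medians, because the table holds only 79.4% of the 13435 tested protein-coding genes.

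Large rises on the X chromosome were counted as a description. Of 501 tested protein-coding genes on it, 49 (9.78%) were higher by at least 3 log2 units, against 285 of 13435 (2.12%) on all chromosomes. Of these, 47 of the 49 and 253 of the 285 passed the filter through the decitabine libraries alone and could enter only by rising, so that nothing is read from the shares. Many X-linked members belong to the MAGE, GAGE, CT45 and SSX families of nearly identical copies, which were counted one by one here, and the part of such copies was not tested. Called higher by any size were 156 X-linked genes (31.1%) and lower 95 (19%), against 25.6% and 22.3% of all tested protein-coding genes.

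Among the non-coding genes the largest rises after PROSER2-AS1 were those of PAX8-AS1 (6.45), AL160408.3 (5.99), LINC01667 (5.93), H19 and AFAP1-AS1. AFAP1-AS1 was expressed in DMSO (28.8, 27.7 and 27.6) and rose to 1527, 1486 and 1495 (5.69, SE 0.07, limma, BH-adjusted p = 2.28e-08). H19, an imprinted RNA made from the maternal chromosome, had 8.32, 11.7 and 5.31 in DMSO and 459, 455 and 511 after decitabine (5.71, SE 0.24). Both rose in every library by far more than the spread. Whether counting used strand is not given in the sources used here, so that reads of an antisense gene and its partner cannot be told apart. This touches VLDLR-AS1, which fell by 1.68 (from 52.4, 71.3 and 66 to 20.6, 20.5 and 15.8) where VLDLR, named after its values were seen, fell by 1.30. The other largest non-coding falls were those of H2BU2P (-1.12), AC099568.2 (-1.01) and AC044893.1 (-0.99).

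Imprinted genes, which are expressed from 1 parental copy and carry methylation marks set in the germ line, were 11 higher and 4 lower of 25 tested (median 0.22), against 25.1% and 18.7% of all genes. The lower calls fell to 2 under quantile normalization and under scaling without mitochondrial genes. MKRN3 went from 0, 0.711 and 0.247 to 53.4, 60.3 and 72.5 (5.60) and the CDK inhibitor gene CDKN1C from 3.25, 1.03 and 3.58 to 30.0, 40.1 and 32.5 (3.36). Both are among the 3 imprinted genes that passed the filter through the decitabine libraries alone and could enter only by rising. PEG10, a retrotransposon-derived gene, rose by 1.39 (SE 0.06) and MEST fell by 0.84 (SE 0.13). Tumour suppressor genes known for promoter methylation in cancer showed no common direction, with 4 higher and 5 lower of 22 tested and a median of -0.02 (4 and 3, median 0.04, with scaling without mitochondrial genes). THBS1, an angiogenesis inhibitor, rose by 2.27 (SE 0.13) while RASSF4 fell by 1.10 (SE 0.07), from 2844, 2775 and 2834 to 1409.6, 1375 and 1169.

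The transcript of the drug's own target fell slightly. DNMT1 had 4064, 3836 and 3715 normalised counts in DMSO and 3133, 2989 and 3378 after decitabine (-0.29, SE 0.06, limma, BH-adjusted p = 0.00567). The de novo methyltransferase DNMT3A had 897, 848 and 833 and then 1229, 1613 and 1844 (0.84, SE 0.14, limma, BH-adjusted p = 0.00232), and DNMT3B rose by 0.23 (SE 0.06), a call lost without decitabine replicate 1 or DMSO replicate 3. DNMT1 thus moved opposite to both de novo enzymes. UHRF1, which guides DNMT1 to hemimethylated DNA, had 5282, 5314 and 5293 and then 4901, 4806 and 5003 and was not called (-0.11, SE 0.04, limma, BH-adjusted p = 0.0539). Of the 25 genes of the methylation machinery 5 were higher and 9 lower (median -0.11), against 25.1% and 18.7% of all genes, and scaling without mitochondrial genes left 5 and 5 (median -0.05). Among them ZFP57, a guardian of imprinted marks, went from 0.605, 2.16 and 1.39 to 20.3, 20.8 and 28.6 (3.38), and CDCA7, a partner of the remodeller HELLS, fell by 0.59 (SE 0.04).

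Genes of nucleoside uptake and metabolism, which decide how much active drug forms, were 5 higher and 11 lower of 28 tested (median -0.16). The shares over all genes were 25.1% and 18.7%. DCK, the kinase of the first activating step, had 2289, 2208 and 1975 in DMSO and 1932, 1938 and 1969 after decitabine and was not called (-0.15, SE 0.06, limma, BH-adjusted p = 0.0916). CDA, the deaminase that inactivates the drug, rose from 54.4, 56.8 and 56.8 to 91.2, 102 and 90.4 (0.74, SE 0.11, limma, BH-adjusted p = 0.00106). SLC29A1, the main equilibrative nucleoside transporter, fell by 0.31 (SE 0.06), and SAMHD1, which hydrolyses deoxynucleotide triphosphates, was not called (-0.13, SE 0.05). The concentrative transporter SLC28A3 went from 0.34, 0.347 and 0 to 46.1, 24.4 and 28.1 (4.75) and the ectonucleotidase gene NT5E rose by 1.54 (SE 0.14). NME1, a nucleoside diphosphate kinase, fell by 0.82, and DUT, which removes dUTP, by 0.59.

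Genes of DNA replication fell together and by small steps. Of 39 tested members 30 were lower, 0 higher, and the median was -0.39, against 18.7% lower and a median of 0.06 over all genes; 30 and 29 were lower under quantile normalization and scaling without mitochondrial genes. In bulk RNA, fewer cells in S phase and less RNA per cell cannot be told apart, here and for the other growth genes below. MCM6, a subunit of the replicative helicase, had 5212, 5409 and 5417 in DMSO and 3621, 3571 and 3304 after decitabine (-0.61, SE 0.05, limma, BH-adjusted p = 5.87e-05). RFC3, of the clamp loader, had 1667, 1652 and 1642 and then 1024, 1030.3 and 945 (-0.73). POLA1, the catalytic subunit of the priming polymerase, had 1678, 1553 and 1512 and then 1022, 1109 and 1133 (-0.54). In all 3 the groups stood clear of each other although the falls were under 1 log2 unit. POLD1 (0.02), RPA1 (-0.04) and TIMELESS (-0.04) were not called and overlapped.

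The promoters of MCM6 and POLA1 are printed because E2F factors, which switch on S-phase genes, are known to bind words such as TTTGGCGC and TTTCGCGC. Both strands were searched, the capitals mark the words on either strand, and in MCM6 the 2 words overlap each other. MCM6 lies at chr2:135876394-135876693 (minus strand) and POLA1 at chrX:24693668-24693967 (plus strand), both GRCh38.p14 from RefSeq, 5′ to 3′ on the gene's strand.
MCM6: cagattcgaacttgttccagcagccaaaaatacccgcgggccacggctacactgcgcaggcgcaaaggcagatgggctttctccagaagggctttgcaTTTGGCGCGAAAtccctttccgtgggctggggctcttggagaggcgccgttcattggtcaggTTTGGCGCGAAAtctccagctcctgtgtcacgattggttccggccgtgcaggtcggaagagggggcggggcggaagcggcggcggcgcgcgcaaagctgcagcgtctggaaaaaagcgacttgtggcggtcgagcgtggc
POLA1: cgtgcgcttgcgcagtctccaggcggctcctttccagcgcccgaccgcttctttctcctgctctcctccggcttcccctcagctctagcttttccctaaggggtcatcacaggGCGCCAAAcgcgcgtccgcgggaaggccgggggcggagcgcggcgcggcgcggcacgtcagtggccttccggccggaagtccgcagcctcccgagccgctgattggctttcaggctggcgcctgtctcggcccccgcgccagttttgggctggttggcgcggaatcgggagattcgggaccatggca
Of the 30 fallen replication genes 25 had an entry, and 9 of these (36.0%) held one or both words, against 322 of all 27305 promoters (1.18%), 2.17% of the tested genes with an entry and 3.97% of the genes called lower with one. They were MCM2, MCM3, MCM6, MCM7, CDC6, GINS1, POLA1, POLA2 and POLE2. A match is a description of letters and shows no binding. The list was made of S-phase genes, so that the share cannot be tied to their fall. The words were not counted in the 9 replication genes that were not called.

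Mitosis genes were 30 lower and 1 higher of 40 (median -0.30). KIF20A, a cytokinesis motor, fell by 0.75 (SE 0.05), CCNA2, cyclin A2, by 0.70 (SE 0.05) and CDCA8, of the chromosomal passenger complex, by 0.62 (SE 0.04). The exception was UBE2C, the ubiquitin-conjugating enzyme of the anaphase-promoting complex, with 10.3, 9.09 and 4.75 in DMSO and 91.5, 81.6 and 90.6 after decitabine (3.35, SE 0.26, limma, BH-adjusted p = 4.35e-05). CDK1 was not called (-0.03, SE 0.08) and overlapped. DNA repair genes were 19 lower and 2 higher of 32 (median -0.34), with UNG, the uracil glycosylase, down by 0.66 and MGMT, the alkyl-guanine transferase, by 0.60.

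Core histone genes, which are transcribed in S phase, were 39 lower and 2 higher of 46 (median -0.64). H2BC13 had 873, 1207 and 1147 in DMSO and 541, 554 and 495 after decitabine (-1.01, SE 0.12), and H4C9 140.4, 209 and 173 and then 77.3, 94.4 and 75.7 (-1.06). Against these falls stood 2 genes near 0 in DMSO: H4C6 with 0.638, 0 and 0.283 and then 164, 174 and 140.0, and H3C6 with 2.04, 0.693 and 0.804 and then 84.7, 110.1 and 59.8. Linker histones split likewise, with 3 higher and 4 lower of 8 (median -0.18): H1-1 went from 0.638, 0.325 and 0.283 to 194, 205 and 195 and the testis form H1-6 from 4.47, 4.88 and 1.98 to 108, 118 and 98, while H1-5 fell by 0.74 (SE 0.12). Histone genes share long stretches of sequence, so that the split of reads between copies is uncertain.

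Of 23 G1 cyclins, kinases and inhibitors, 7 were higher and 10 lower (median -0.12), against 25.1% and 18.7% of all genes, so that the count of rises is near the background. CDK6 fell by 0.57 (SE 0.05), CCNE1, cyclin E1, by 0.48 (SE 0.06) and E2F1 by 0.44 (SE 0.06), while CCNA1, a cyclin of germ cells and myeloid leukaemia, rose from 197, 197 and 189 to 724, 657 and 701 (1.83, SE 0.07). Of 35 p53 targets 14 were higher and 6 lower (median 0.14), the latter near the 18.7% of all genes. BTG2, an antiproliferative gene, had 616, 575 and 568 in DMSO and 2038, 1922 and 1946 after decitabine (1.75, SE 0.06, limma, BH-adjusted p = 7.4e-07), and CDKN1A, which encodes the CDK inhibitor p21, 381, 367 and 344 and then 856, 847 and 699.8 (1.13, SE 0.09). Other targets did not share this, since SESN2, a stress-induced inhibitor of mTORC1, fell by 0.92 (SE 0.07).

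Of 15 BCL2 family genes 7 were higher and 3 lower (median 0.16), against 25.1% and 18.7% of all genes, so that the count of falls is near the background. BCL2, the antiapoptotic founder, had 3412, 3115 and 3240.4 in DMSO and 2025, 1744 and 1829.9 after decitabine (-0.80, SE 0.07, limma, BH-adjusted p = 6.22e-05). BCL2A1, another antiapoptotic member and an NF-kB target, had 52.1, 64.4 and 63.2 and then 194, 195 and 190.0 (1.68, SE 0.11). HRK, a proapoptotic BH3-only gene, had 272, 298 and 302 and then 110.5, 112 and 89.4 (-1.48, SE 0.11). Of the antiapoptotic members named here BCL2 fell and BCL2A1 rose, and the proapoptotic HRK fell.

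Genes of growth and biosynthesis fell as well. Of 24 genes of ribosome biogenesis and MYC-linked growth, 23 were lower and 0 higher (median -0.52). MYC had 5541, 6243 and 5791 normalised counts in DMSO and 2558, 2286 and 2181 after decitabine (-1.32, SE 0.07, limma, BH-adjusted p = 7.67e-06). NCL, nucleolin, had 42988, 48379 and 48677 and then 29087, 27042 and 28665 (-0.72, SE 0.06), and TERT, the catalytic subunit of telomerase, 40.3, 33.1 and 38.7 and then 15.9, 11.1 and 23 (-1.17, SE 0.25, limma, BH-adjusted p = 0.00703). The exception was UBTF, a factor of ribosomal DNA transcription, which was not called (-0.02, SE 0.07).

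The integrated stress response, by which ATF4 drives amino acid transport and serine synthesis, had the lowest median of the 42 lists, -0.75, with 25 lower and 3 higher of 32. ALDH1L2, a mitochondrial folate enzyme, had 1023, 1077 and 1151 in DMSO and 337, 292 and 271 after decitabine (-1.85, SE 0.09, limma, BH-adjusted p = 5.14e-06). SLC7A11, the cystine transporter, had 1045, 1089.6 and 1124 and then 338, 350.2 and 303 (-1.72, SE 0.07), and SLC7A5, which carries large neutral amino acids, 4608, 4716 and 4603 and then 1745, 1810.2 and 1605 (-1.43, SE 0.05). PSAT1, of serine synthesis, fell by 1.48 and CHAC1, which degrades glutathione, by 1.48. The opposite was seen in 3 members, ATF5 with 1.26 (SE 0.10), CBS, which makes cystathionine, with 0.21 (SE 0.05), and PPP1R15A, which ends it by dephosphorylating eIF2, with 0.84 (SE 0.08). DDIT3 (0.11, SE 0.14) and ATF3 (0.05, SE 0.29) were not called.

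The unfolded protein response was 7 lower and 3 higher of 20 with a median of -0.08, and 4 lower and 3 higher with a median of 0.01 under quantile normalization. XBP1 fell by 0.62 (SE 0.09) and HSPA5, the chaperone BiP, by 0.36 (SE 0.04). Cholesterol and fatty acid synthesis was 17 lower and 1 higher of 28 (median -0.30): SCD, the stearoyl-CoA desaturase, had 12737, 12446 and 12727 and then 6613, 6322 and 6472 (-0.97, SE 0.04) and FASN, fatty acid synthase, fell by 0.67 (SE 0.09). Glycolysis and the pentose phosphate pathway were 14 lower and 7 higher of 28 (median -0.16), against 18.7% and 25.1% of all genes. Their count of rises is near the background. ENO1, enolase, fell by 0.74 and LDHA, lactate dehydrogenase, by 0.56. Among the risen members were TKTL1 and HK3, a hexokinase of myeloid cells (from 415, 384 and 367 to 1457, 1493 and 1449.8, 1.91).

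The largest falls of single protein-coding genes were smaller than the rises and kept a measurable level. MANEAL, an endomannosidase-like gene, had 155, 160.1 and 152 in DMSO and 19.1, 34 and 16.9 after decitabine (-2.75, SE 0.24). CCR2, the receptor of the monocyte chemokine CCL2, had 70.1, 68.9 and 85.1 and then 17.8, 15 and 6.94 (-2.50, SE 0.31). GNPNAT1, of the hexosamine pathway, had 958, 1268 and 1603 and then 215, 251 and 258 (-2.37, SE 0.18). Of these 3 genes the treated libraries of CCR2 varied most, from 6.94 to 17.8, yet all lay below every DMSO library. LRP2, the endocytic receptor megalin, fell by 2.05 (SE 0.08), NPR3, a natriuretic peptide receptor, by 2.14 (SE 0.16) and PRTN3, proteinase 3 of neutrophil granules, by 1.92 (SE 0.12). The other named falls were GPM6B (-1.92), FRMD3 (-1.89), SUGCT (-1.88), ANK2 (-1.80), NWD2 (-1.68) and the growth factor gene FGF9 (-1.59), beside ALDH1L2 and SLC7A11.

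The called genes with the highest mean values changed little. The rises were those of MALAT1, a nuclear non-coding RNA (0.54, SE 0.10), MT-CO1 (0.36, SE 0.08) and AL162581.1 (0.39, SE 0.13). The falls were those of SET, a histone chaperone (-0.50, SE 0.04), MT-ND2 (-0.50), HNRNPA2B1 (-0.40), PTMA, prothymosin alpha (-0.39), CALR, calreticulin (-0.25), MIR663AHG (-0.23) and the ribosomal protein gene RPL4 (-0.18). Under quantile normalization only MALAT1, SET and RPL4 of these 10 stayed called. Scaling without mitochondrial genes also ended the calls of RPL4 and MIR663AHG. The calls of AL162581.1, RPL4 and MIR663AHG were lost without single libraries: AL162581.1 without decitabine replicate 1 or 2 or DMSO replicate 1 or 3, RPL4 without decitabine replicate 2 or 3 or DMSO replicate 2 or 3, and MIR663AHG without DMSO replicate 2 or 3.

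Immune genes rose across several groups. Of 39 interferon-stimulated genes 25 were higher and 2 lower (median 0.69). LGALS3BP, a secreted scavenger-domain glycoprotein, had 4.32, 9.54 and 10.1 in DMSO and 363, 426 and 352 after decitabine (5.48, SE 0.28), and IRF7, the factor that amplifies interferon production, 67.6, 60.2 and 70.0 and then 252, 243 and 249.6 (1.90, SE 0.10, limma, BH-adjusted p = 5.54e-06). IFITM3 rose by 1.64 and IFIT2 by 1.53. USP18, which damps interferon signalling, did not pass the test (-0.06, SE 0.10), and OAS1, OAS2, OASL, IFI44 and IFI44L stayed below the filter. Among 17 nucleic acid sensors (for double-stranded RNA or DNA) 7 were higher and 1 lower (median 0.19), with IFI16, a nuclear DNA sensor, from 214, 208 and 184 to 709.6, 559 and 686 (1.68), while IFIH1 (0.15, SE 0.06) was not called.

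Genes of antigen presentation were called higher in part for class I and in most cases for class II. Of 24 MHC class I genes 12 were higher, 0 lower and 12 not called, against 25.1% higher of all genes (median 0.32; 12 and 2 under quantile normalization): HLA-E rose by 0.79 (SE 0.04) and B2M, the shared light chain, by 0.40 (SE 0.05). Of 17 MHC class II genes 14 were higher and 1 lower (median 1.14). HLA-DRA had 94.9, 103 and 94.7 in DMSO and 451, 461 and 415 after decitabine (2.17, SE 0.08, limma, BH-adjusted p = 1.75e-06). HLA-DMB, a chain of the peptide loader, had 13.5, 14.9 and 12.1 and then 96.5, 87.2 and 89.2 (2.67), and HLA-DPA1 86.6, 81.5 and 83.2 and then 291, 311 and 269 (1.78). No class II value of these 3 genes overlapped between groups. HLA genes are similar and variable in sequence, and the values of single members are uncertain.

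Targets of NF-kB and inflammatory cytokines were 19 higher and 0 lower of 24 (median 0.90; 17 and 2 under quantile normalization). TNF had 5.11, 3.58 and 6.22 in DMSO and 111, 121 and 94.5 after decitabine (4.22, SE 0.21, limma, BH-adjusted p = 5.15e-06). IL1B had 20.6, 23.2 and 25 and then 121, 123 and 124 (2.38), and IL32 0, 0.901 and 0.274 and then 60.2, 64 and 86.2 (5.71). TNF and IL32 are the 2 members of this list that passed the filter through the decitabine libraries alone and could enter only by rising. NFKB1 itself did not pass (-0.23, SE 0.12), and IL6 was at 0 in all 6 libraries. Chemokines and their receptors were 9 higher and 2 lower of 16 (median 0.49; 7 and 5 with a median of 0.26 under quantile normalization), with CCL3 up by 2.12 (SE 0.11) and CXCL8 by 0.74 (SE 0.06) against the fall of CCR2. Checkpoint and costimulatory genes were 7 higher and 1 lower of 16 (median 0.28; 5 and 2 under quantile normalization). CD86, the costimulator of T cells, had 445, 451 and 444 and then 957, 961 and 984 (1.11, SE 0.05), VSIR rose by 0.96, and CD274 (PD-L1) had a mean of 0.937 and 1.76 and was not tested.

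More genes of myeloid maturation rose than fell in SKM-1, and genes of the neutrophil granule were among the falls. Of 22 tested monocyte and macrophage markers 14 were higher and 2 lower (median 1.17). The summed values of the list were 37412 to 40508 in DMSO and 67617 to 68379 after decitabine. Of the tested markers 3, CD93 and MRC1 among them, passed the filter through the decitabine libraries alone and could enter only by rising. S100A8, a calcium-binding alarmin, had 1763, 2104 and 2179 in DMSO and 8115, 8593 and 7692 after decitabine (2.02, SE 0.08), and ITGAX (CD11c) 455, 414 and 457 and then 1301, 1338 and 1406 (1.61). The mannose receptor gene MRC1 had 0, 0.976 and 0.283 and then 43.1, 44.9 and 44.8 (5.05). FCGR1A, the high-affinity Fc receptor, fell by 0.52 (SE 0.08), and CSF1R, the M-CSF receptor, by 0.18 (SE 0.05), a call lost without each library in turn except DMSO replicate 2, while LYZ (-0.06, SE 0.04) did not pass and CD14 and CD163 stayed below the filter. Lysosome and phagocytosis genes were 21 higher and 3 lower of 29 (median 0.65): CYBB, a subunit of the phagocyte oxidase, rose by 1.29 (SE 0.05), and TYROBP, the adaptor DAP12, had 119, 143 and 147 and then 617, 659 and 657 (2.24). S100 and annexin genes were 17 higher and 0 lower of 23 (median 0.91), of which 2 passed through the decitabine libraries alone. Integrins and adhesion molecules were 12 higher and 4 lower of 28 (median 0.22, and 13 and 2 with scaling without mitochondrial genes). Among them ITGAM (CD11b) rose by 1.23 (SE 0.05) and CDH2, N-cadherin, fell by 0.81.

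Granulocyte markers split into 8 higher and 6 lower of 18 (median 0.11), with sums of 67707 to 71653 in DMSO and 53068 to 66576 after decitabine. Of the genes of primary neutrophil granules, a grouping made after their values were seen, 5 fell and BPI, a bactericidal protein, rose by 0.44 (SE 0.05). Other rises in the list were those of RETN, resistin (3.73, SE 0.13), the gelatinase gene MMP9 (3.23, SE 0.11) and CAMP, cathelicidin (1.57, SE 0.17). MPO, myeloperoxidase, had 41591, 42233 and 41435 in DMSO and 31212, 27953 and 21238 after decitabine (-0.66, SE 0.13, limma, BH-adjusted p = 0.00568). PRTN3 had 9823, 12383 and 10799 and then 3111, 3136 and 2461 (-1.92, SE 0.12, limma, BH-adjusted p = 2.36e-05), and ELANE, neutrophil elastase, 1072, 1308 and 1227 and then 522, 532 and 383 (-1.34, SE 0.14). AZU1, azurocidin, fell by 0.50 (SE 0.06) and CTSG, cathepsin G, by 0.82 (SE 0.18). Decitabine replicate 3 was the lowest treated library in MPO, PRTN3, ELANE and CTSG.

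Several eosinophil genes rose in the same libraries. PRG2, the major basic protein, had 373, 523 and 482 in DMSO and 6143, 5949 and 5592 after decitabine (3.69, SE 0.12, limma, BH-adjusted p = 1.32e-06). CLC, the Charcot-Leyden crystal protein, had 2318, 2668 and 2780.3 and then 11759, 11576 and 10479 (2.12, SE 0.08), and EPX, eosinophil peroxidase, 0.638, 1.95 and 0.283 and then 67.5, 70.0 and 65 (5.22, SE 0.31). PRG3, a homologue of PRG2, rose by 2.61 (SE 0.17), whereas RNASE2, another eosinophil granule gene, was not called (-0.19, SE 0.12) and RNASE3 stayed below the filter. GATA2 had 158, 128 and 162 and then 1522, 1570.0 and 1459 (3.34, SE 0.10), and GATA1 2.47, 3.91 and 1.7 and then 93.9, 109 and 79.6 (4.72, SE 0.25); both are transcription factors of the eosinophil, basophil and mast cell lineages, GATA1 also of red cells and platelets. Together with HDC and IL5RA, the risen genes PRG2, CLC, EPX, PRG3, GATA2 and GATA1 moved opposite to MPO, PRTN3, ELANE, AZU1 and CTSG in all 3 treated libraries. PRG2, CLC, EPX and PRG3 had no list of their own. They were taken from the granulocyte list, so that 2 parts of 1 list are contrasted after their values were seen. Mast cell and basophil markers were 2 higher (HDC and GATA2) and 1 lower of 4 tested, and the defining markers TPSAB1 and FCER1A stayed below the filter; the summed list was 2901 to 2986 and then 3572 to 3708. KIT, the stem cell factor receptor, fell by 0.96 (SE 0.06).

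**Figure D3:**
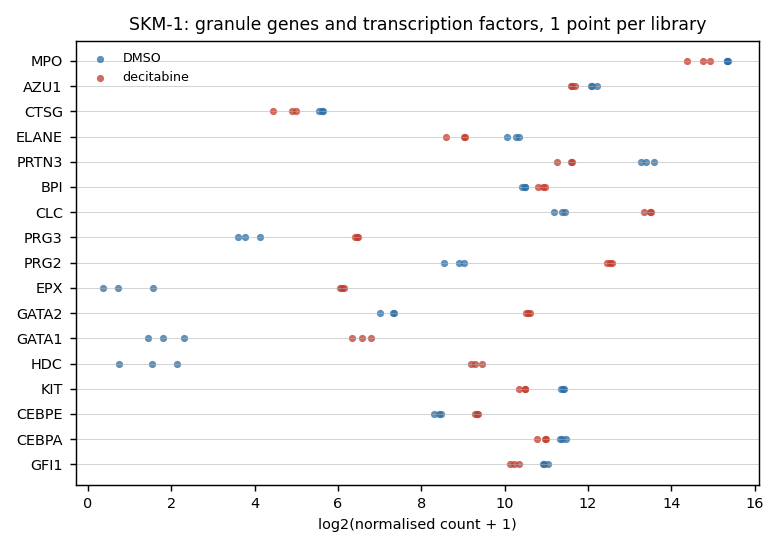
Each point is 1 SKM-1 library, with log2(normalised count + 1) on the x axis, for genes of neutrophil granules (MPO to BPI), eosinophil genes (CLC to EPX) and related factors. MPO, AZU1, CTSG, ELANE and PRTN3 lie lower after decitabine, and CLC, PRG3, PRG2, EPX, GATA2, GATA1 and HDC lie higher, with no overlap in any of them.

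Myeloid transcription factors were 9 higher and 5 lower of 24 (median 0.04), against 25.1% and 18.7% of all genes, so that the count of falls is near the background. CEBPE, of late granulocyte maturation, rose from 313, 342 and 354 to 649.8, 626 and 657 (0.94, SE 0.07) and GFI1B, a repressor of red cell and platelet precursors, by 2.97. GFI1, a repressor needed by neutrophils, fell from 2119, 1939.7 and 1974 to 1301, 1202 and 1121 (-0.74, SE 0.07) and CEBPA, of early granulocyte commitment, by 0.48 (SE 0.07). SPI1 was not called (-0.12, SE 0.07). Progenitor markers were 4 higher and 5 lower of 16 (median 0.03, and -0.01 under quantile normalization), against 25.1% and 18.7% of all genes. Their count of rises is near the background. CD34 had 6.74, 6.77 and 6.75 and then 53.7, 50.6 and 62.1 (2.86) and FLT3 340.0, 362 and 369 and then 266, 243 and 222 (-0.55). HOX genes and cofactors were 6 higher and 2 lower of 15 (median 0.30, and 3 and 2 with a median of 0.08 under quantile normalization), with HOXB2 up by 3.24, HOXA10 down by 0.35 and HOXA9 not called (0.09, SE 0.06). Through the decitabine libraries alone passed 2 members of the HOX list, 2 of the transcription factors and 1 progenitor marker.

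Some markers of other lineages rose from low levels. Lymphoid markers were 9 higher and 1 lower of 12 tested (median 1.60), 4 of which passed through decitabine alone; the 31 listed genes summed to 1133 to 1171 in DMSO and 1545 to 1591 after decitabine, and MS4A1, DNTT, GZMA, GZMB and KLRB1 were at 0 in all 6 libraries. CD3E went from 0.852, 2.17 and 1.15 to 44.9, 46.5 and 48.6 and GNLY, granulysin, from 0.237, 0 and 0.454 to 26.3, 36.4 and 24.5. Epithelial markers were 5 higher of 7 tested (median 2.39, 4 through decitabine alone), with KRT5, KRT14 and KRT20 at 0. Their sums were 555 to 616 and then 1352 to 1476, and most of that rise was KRT8 (means 3.28 and 657). KRT18, the partner of KRT8, went from 1.54, 2.52 and 0.821 to 47.5, 54.9 and 55.6. Fibroblast and endothelial markers were 7 higher of 11 (median 1.27), with sums of 2418 to 2667 and then 4704 to 5291 and COL3A1 and PDGFRA at 0. A large part of this summed rise was CD93 (means 3.73 and 1030). Neuronal markers were 6 higher of 8 (median 0.61; 3 higher and 1 lower with a median of 0.26 under quantile normalization), with sums of 1231 to 1394 and then 1568 to 1707, and megakaryocyte markers 4 higher of 7 (median 0.21), with sums of 8205 to 8660 and then 9482 to 9846, ITGA2B up by 2.99, and PF4 and GP1BB at 0. Of erythroid markers GATA1 was higher and 0 lower of 5 (median 0.14, and -0.21 under quantile normalization), with sums of 3361 to 4105 and then 3357 to 3612 and HBA1, HBB, HBE1, HBZ, GYPB and EPB42 at 0. Genes of the sperm axoneme and cilium were 4 higher and 2 lower of 11 (median 0.40), against 25.1% and 18.7% of all genes. DNAH8 was among the rises and DNAH14, another dynein heavy chain gene, fell by 0.42. Through the decitabine libraries alone passed 2 fibroblast and endothelial, 2 neuronal, 1 megakaryocyte and 1 erythroid marker (GATA1) and 2 axoneme genes. These could enter only by rising. The part of other cells in the values of this paragraph was not tested.

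**Figure D4:**
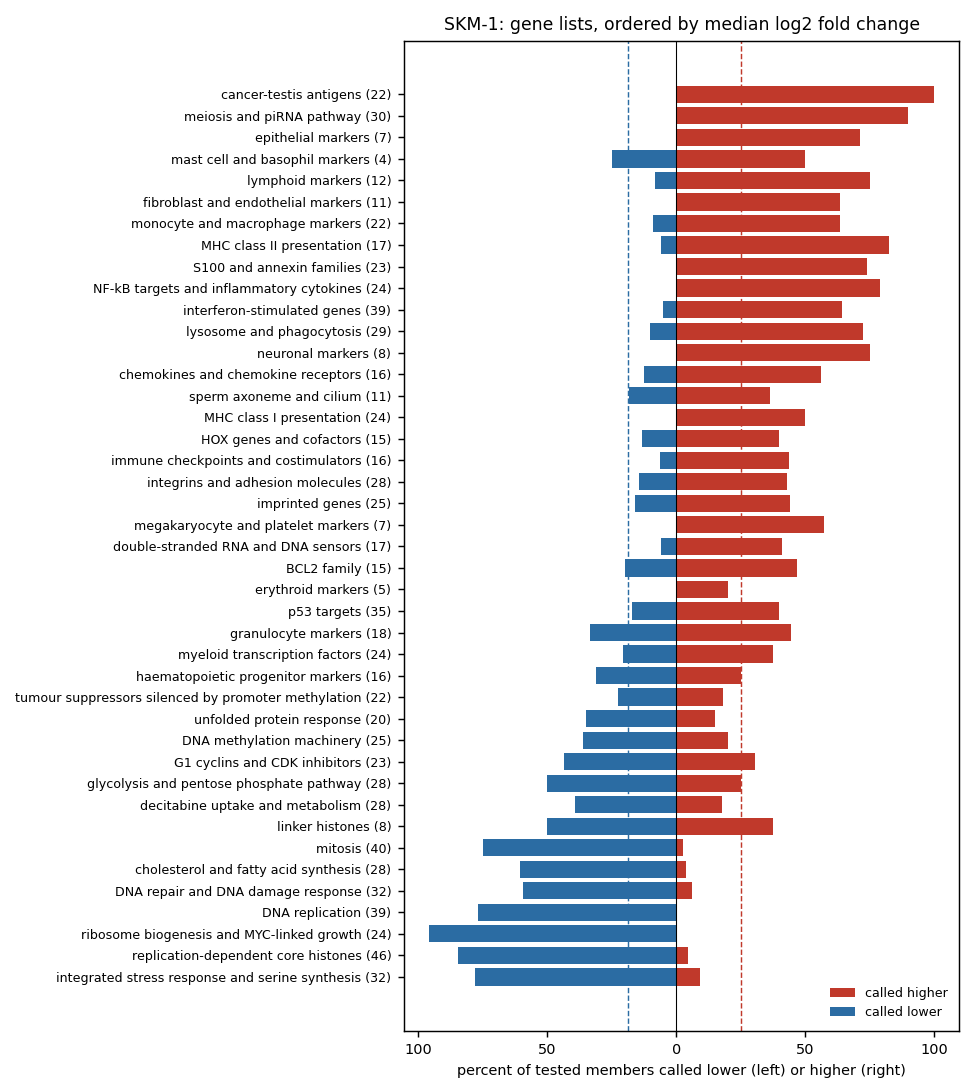
Bars give the percent of tested members (number in brackets) of each of the 42 lists that were called higher (right) or lower (left) in SKM-1, ordered by median log2 fold change, with dashed lines at 25.1% and 18.7% for all tested genes. The highest medians are those of cancer-testis antigens (5.02), meiosis and piRNA genes (2.90) and epithelial markers (2.39), and the lowest those of core histones (-0.64) and the integrated stress response (-0.75); members silent in DMSO could pass only by rising.

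The response of SKM-1 was compared with that of MOLM-13, the other line with deep libraries (42.9 to 75 in units of 1e+06 reads), in 1 limma model of 12 libraries. The difference between the responses was called in 23.0% of 18205 genes: 2468 (13.6%) had a more positive response in SKM-1 and 1712 (9.4%) a more negative one. With the spread shared with all 30 libraries, 669 genes were called (539 and 130). Of cancer-testis antigens 21 of 23 tested had a more positive response in SKM-1, of meiosis and piRNA genes 24 of 32, of MHC class II genes 10 of 18 and of NF-kB targets 12 of 24, with 0, 0, 0 and 1 the other way. Nothing is read from the germline counts, since in the fit of SKM-1 alone 21 of 22 cancer-testis genes and 15 of 30 meiosis and piRNA genes passed the filter through the decitabine libraries only. Of the integrated stress response 21 of 33 had a more negative response in SKM-1, of core histones 18 of 46, of replication genes 14 of 39 and of DNA repair genes 12 of 32, with 4, 2, 2 and 1 the other way. Against the mean of the 4 other lines, described next, the same lists had 4, 0, 0 and 0 more negative and 3, 2, 0 and 0 more positive members. Granulocyte markers were called 6 more positive and 9 more negative of 19. CEBPE rose in both lines, by 0.94 in SKM-1 and 3.44 in MOLM-13 (difference -2.50, SE 0.14, limma, BH-adjusted p = 3.34e-07), and MPO had -0.66 in SKM-1, where its call was lost with the spread shared with MOLM-13, and 2.50 in MOLM-13 (difference -3.16, SE 0.35, limma, BH-adjusted p = 0.000161). PRG2 had 3.69 and 1.03 (difference 2.67, SE 0.17), CLC 2.12 and -0.43 (difference 2.55, SE 0.27) and GATA2 3.34 and 0.25 (difference 3.09, SE 0.13). UBE2C had 3.35 and -0.34 (difference 3.69, SE 0.27). These 4 differences had adjusted p of 7.69e-07, 4.41e-05, 5.74e-08 and 2.24e-06 by limma with BH adjustment. DCK (-0.15 and -0.44, adjusted p of the difference by limma 0.0712), CDCA7 (-0.59 and -0.47, 0.193) and MCM6 (-0.61 and -0.72, 0.414) were not called as different.

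Against the mean response of KG-1, MOLM-13, MOLM-14 and OCI-AML3, whose libraries outside MOLM-13 had 1.97 to 31.2 (units of 1e+06 reads), 860 of 22168 genes were called (3.88%), 635 more positive in SKM-1 (2.86%) and 225 more negative (1.01%). Without decitabine replicate 1, 2 or 3 of SKM-1 the calls were 544, 516 and 491, and with no filter on low values 1306. This comparison shares its SKM-1 and MOLM-13 libraries with the one above and takes its spread from all 30 libraries. CD93 had 7.83 in SKM-1 and -0.00, 0.43, 0.37 and 0.32 in KG-1, MOLM-13, MOLM-14 and OCI-AML3 (difference from their mean 7.55, limma, BH-adjusted p = 2.86e-19). GAGE12F had 8.65 and then 0.00, 0.37, 0.00 and 1.46 in the same order. PNMA5 had 7.70, 1.54, 3.73 and 7.14, with both KG-1 and OCI-AML3 above 7. The DMSO levels of these genes in the other lines are not given here. A fold change near 0 there does not tell an expressed gene from a silent one. Of the falls, CCR2 (-2.69, limma, BH-adjusted p = 1.85e-07), LRP2 (-2.71, 0.00246) and PRTN3 (-3.03, 8.35e-09) differed from the mean of the other lines, while MANEAL (-1.85, 0.238) and ALDH1L2 (-1.58, 0.457) did not pass this test.

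**Figure D5:**
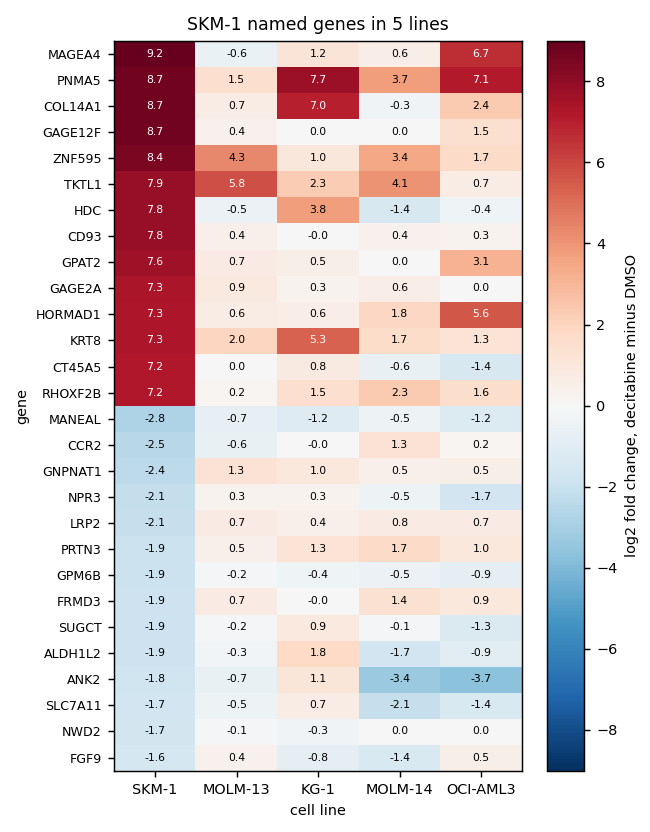
Rows are the 28 protein-coding genes of SKM-1 with the largest called rises and falls, columns are 5 AML lines, and colour and printed numbers give the log2 fold change of decitabine against DMSO. The genes were chosen on SKM-1, so that its column is extreme by choice; PNMA5, COL14A1, MAGEA4, KRT8, HORMAD1 and TKTL1 also show values above 5 in another line.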

How the data were processed

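RNA was sequenced from AML lines given decitabine or DMSO. The deposited signal is a table of normalised counts, which the name the authors gave the table ties to estimated counts divided by normalization factors; hg38 and the tools DESeq2, limma, featureCounts, STAR and Salmon (version 1.2.1) are named, without roles, in the submitters' processing notes. In SKM-1, 63.5% to 64.7% of low values were whole multiples of 1 read within 0.02, so reads were not recovered and no count model was run. Values were tested as log2(value + 1) with limma 3.58.1 (trend and robust, statmod 1.5.0, R 4.3.3) on genes with at least 10 normalised counts in at least 3 of 6 SKM-1 libraries, with Benjamini-Hochberg adjustment below 0.05; fold changes on this scale understate low genes. The differences from MOLM-13 and from the mean of 4 other lines were interaction contrasts over 12 and 30 libraries. Of the 42 labelled libraries, 12 of 2 lines were not analysed here, and 12 columns that match no labelled sample were not used. Gene types and coordinates are from GENCODE 29 on GRCh38 (58064 of 60240 genes matched), and promoters from RefSeq on GRCh38.p14.

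Named genes were the 14 largest rises and 14 largest falls of protein-coding genes (called, no overlap, higher group at least 50), 6 and 4 such non-coding genes, up to 6 called members of each list in each direction, the 8 largest differences from MOLM-13 each way, 10 genes of drug action and the 10 called genes of highest mean. Uncalled list members, identity markers, genes silent in DMSO, B2M, BPI, CAMP and VLDLR named beside them were chosen after their values were seen. The members and lists were chosen with earlier results of these data known. The test was checked on simulated data. Alternatives were other pseudocounts, filters, scalings, sources of spread, a replicate block and leaving out each library. A few list members are not reported here by name.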

Additional observations from a re-analysis of the deposited data

Results flagged for a closer look

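The response of SKM-1 differed from that of MOLM-13 by a test of the difference itself (limma interaction over 12 libraries, BH-adjusted p below 0.05) in 23.0% of 18205 genes, and the 8 largest differences in each direction among genes called in SKM-1 are given here. They were chosen for their size, so that the values are a description. More positive in SKM-1 were MAGEA4 with a difference of 9.81 (SE 0.39), HDC with 8.35 (SE 0.51), GAGE12F with 8.28, COL14A1 with 8.0, CD93 with 7.41 (SE 0.29), CT45A1 with 7.24, CT45A5 with 7.23 and PROSER2-AS1 with 7.21. In MOLM-13 these genes had log2 fold changes of -0.63, -0.51, 0.37, 0.65, 0.43, -0.09, 0.01 and -0.02 in the same order. Their DMSO levels in MOLM-13 are not given here, so these values do not tell silent genes from expressed ones.

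More negative in SKM-1 were GNPNAT1 with -3.68 (SE 0.95), MPO with -3.16 (SE 0.35), LOXL4, a lysyl oxidase homologue, with -3.02 (SE 0.19), LRP2 with -2.76, FRMD3 with -2.61, CEBPE with -2.50, NPR3 with -2.45 and PRTN3 with -2.39. LOXL4 had -0.30 in SKM-1 and 2.71 in MOLM-13, and GNPNAT1 -2.37 and 1.31. PRTN3 had -1.92 and 0.46, LRP2 -2.05 and 0.71, FRMD3 -1.89 and 0.72, and NPR3 -2.14 and 0.32. The MOLM-13 values of GNPNAT1, PRTN3, LRP2, FRMD3 and NPR3 were not called in a fit of all 30 libraries. Against the mean of the other lines GNPNAT1 (limma, BH-adjusted p = 0.112) and NPR3 (0.406) did not pass. The calls of MPO and LOXL4 in SKM-1 were lost when the spread was shared with MOLM-13.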

How the results depend on the processing

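With the spread shared with all 30 libraries, which include far shallower ones and brought 22168 genes into the test in place of 16977, 1999 genes were called in SKM-1 (1264 higher and 735 lower) in place of 7447, and the difference from MOLM-13 was called in 669 genes (539 more positive and 130 more negative). With no filter on low values 1306 genes differed from the mean of the other lines, 1083 of them more positive. A threshold of 1 log2 unit left 1464 genes (1351 and 113). Leaving out each library in turn gave 2979 to 3928 genes higher and 2446 to 2811 lower in SKM-1 and 5584 to 6739 in all; against the other lines it gave 491 to 670 (367 to 519 more positive and 124 to 151 more negative), lowest without each of the 3 decitabine libraries. Without a decitabine library, genes silent in DMSO can no longer pass a filter in 3 libraries, and 288 of the 350 named genes were tested; with a filter in 2 libraries, an alternative chosen after seeing the data, all 350 were tested, 14 to 30 calls were lost, and 6197 to 6880 genes were called. The rise of the mitochondrial share, 2.42 percentage points over all genes, was 0.0203 within protein-coding genes. Pseudocounts of 0.5 and 5, no trend, and the spread shared with MOLM-13 each kept the SKM-1 count within 1.5 times. No called direction was reversed under these alternatives. Of 350 named genes, 181 kept their side of the threshold under every alternative that tested them, 155 lost it with the spread of all libraries, 38 with quantile normalization and 15 with scaling without mitochondrial genes. The labels do not say that a replicate number marks a shared batch, so the numbers were not taken as pairs. Deviations of same-numbered libraries correlated with r of -0.0234, 0.0461 and 0.0866, and those of differently numbered ones with r of -0.0781 to 0.036. A replicate block gave 4020 higher and 2946 lower in SKM-1, 2074 and 1266 against MOLM-13, and 683 and 305 against the other lines.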
